A study of Mus musculus with 6 samples.

Results

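The genes that encode the Notch ligands, the Notch receptors and the Fringe glycosyltransferases were followed in the lacrimal gland buds of control and Pea3 TKO mouse embryos. The set holds 10 of the 23420 gene symbols counted, taken by symbol as Jag1, Jag2, Dll1, Dll4, Notch1, Notch2, Notch3, Notch4, Lfng and Rfng. Enough reads for a test were present for 9 of them, all but Dll4. RNA from laser-captured bud epithelium at E14.5 was sequenced from 3 control and 3 Pea3 TKO samples on a mixed genetic background. Both groups carried Le-Cre, a transgene that directs Cre recombinase to the surface ectoderm of the eye. The genotype label of the controls was Le-Cre, with WT in their titles, whereas the study's methods also name heterozygous Le-Cre animals as controls in general. The Pea3 TKO samples were Le-cre, Pea3-/-, Ermfl/fl, Er81fl/fl. The mutant therefore lacked Pea3 (Etv4) in the whole animal, while Erm (Etv5) and Er81 (Etv1) were floxed alleles that recombine where Le-Cre is active. These genes encode the ETS transcription factors that act downstream of FGF signaling. Nothing in the labels says whether samples of a group came from separate embryos or from pools, so the p-values measure the spread between these samples, which may be technical.

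Notch receptors sit on the cell surface and are activated by ligands on the neighboring cell. The ligands form the Jagged family (Jag1 and Jag2) and the Delta family (Dll1 and Dll4). Binding leads to cleavage of the receptor, and the freed intracellular domain (Notch-ICD) enters the nucleus, joins the DNA-binding protein Rbpj and switches on target genes of the Hes and Hey families. The Fringe enzymes, Lfng (Lunatic fringe) and Rfng (Radical fringe), extend O-fucose sugars on the receptor in the Golgi. Lfng is known to favor activation by Delta ligands over activation by Jagged ligands. In glands and other epithelia this pathway takes part in the choice between cell fates.

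The sequences just upstream of 3 of the genes are shown because Jag1 and Lfng moved in opposite directions and because Rfng holds an ETS core upstream of its start. They are RefSeq sequences on GRCm38.p6, read 5′ to 3′ on the strand of the gene and ending at the base before the annotated gene start. The regions are chr2:137116645-137116770 on the minus strand for Jag1, chr5:140607091-140607319 on the plus strand for Lfng and chr11:120784208-120784454 on the minus strand for Rfng. Capitals mark the letters TGGGAA, the core that Rbpj binds, or CGGAAG, a core of ETS factors, on either strand (TTCCCA and CTTCCG on the other strand).
Jag1: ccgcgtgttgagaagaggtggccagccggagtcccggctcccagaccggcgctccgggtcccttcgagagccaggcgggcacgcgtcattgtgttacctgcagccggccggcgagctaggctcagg
Lfng: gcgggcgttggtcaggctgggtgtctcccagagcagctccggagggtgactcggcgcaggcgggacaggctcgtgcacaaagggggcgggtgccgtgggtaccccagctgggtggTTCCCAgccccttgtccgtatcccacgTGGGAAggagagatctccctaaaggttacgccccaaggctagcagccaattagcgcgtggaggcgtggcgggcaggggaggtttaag
Rfng: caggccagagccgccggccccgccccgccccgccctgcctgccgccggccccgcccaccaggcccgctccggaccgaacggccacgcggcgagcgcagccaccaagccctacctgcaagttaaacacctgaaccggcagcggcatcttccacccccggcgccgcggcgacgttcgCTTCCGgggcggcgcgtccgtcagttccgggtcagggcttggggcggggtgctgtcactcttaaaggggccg
Both cores contain GGAA but differ in the base before it, so 1 site cannot match both. In windows of 300 bases around the RefSeq start, the Rbpj core was found 2 times for Lfng and not for the other members. The ETS core was found 1 time each for Notch2 and Rfng. For Notch1 the RefSeq window (chr2:26503773-26504072, minus strand) lies inside the gene as GENCODE annotates it, so the outermost start of Notch1 was not searched. Over all 32851 mouse promoter windows of this length, 25.6% held the Rbpj core and 16.9% the ETS core. The matches are descriptions of these letters only, and neither a match nor its absence speaks to binding.

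The libraries held 14194775 to 17860140 counts. Values are given as CPM, the count per 1e+06 reads after TMM normalization, and a count of 3, used as the detection floor, corresponded to 0.169 to 0.210 CPM. The floxed and deleted genes themselves fell in the mutant, Etv4 from a mean of 151 to 19.5 CPM, Etv5 from 1058 to 139 CPM and Etv1 from 31.8 to 9.52 CPM (edgeR, Benjamini-Hochberg adjusted p = 2.57e-04, 6.63e-05 and 4.29e-04). Counts per gene do not show whether the remaining reads lie in the deleted exons. Over all 13087 genes tested, 13.6% were called higher in Pea3 TKO and 11.3% lower. Among 9 markers of the bud epithelium, 4 were higher in Pea3 TKO, with Pax6 and Cdh1 among them, and 4 were lower, with Sox9 and Sox10 among them. The surface epithelium list rose, with 11 of 12 genes past the test and a summed level of 1079.9 to 2252 CPM in controls against 6296 to 8536 CPM in mutants. The part of this list in the values of the Notch genes was not tested. Fewer cells of a type and less RNA per cell cannot be told apart in such samples. Pea3 TKO replicates 1 and 2 stood apart from the other samples, with 419 and 582 CPM over a list of 10 mesenchymal genes against 13.2 to 132 CPM elsewhere, and with 0.445 and 0.210 CPM over 4 Y-linked genes against 136 to 175 CPM elsewhere. Xist, the X-inactivation RNA of female cells, was at 106 and 32.5 CPM in these libraries and at 0.436 CPM or less elsewhere. Embryo sex is not given in the labels, and its part in the results was not tested beyond the Y-linked covariate. For the members and the Notch pathway genes named below, calls that were lost without these 2 libraries are named as such. That fit leaves 1 mutant sample, whose spread is assumed to be that of the controls. Calls of the marker genes, of Etv1, Etv4 and Etv5 and of the genes nearest in profile to Jag1 and Lfng were not followed in it.

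Of the 9 members tested, 5 were higher in Pea3 TKO, 1 was lower and 3 did not pass the test. The threshold was an adjusted p of 0.05, and over all 13087 genes tested it was passed by 25.0%, with 13.6% higher and 11.3% lower. The higher members were the ligands Jag1 and Dll1 and the receptors Notch1, Notch2 and Notch3, and the lower member was Lfng. In 7 of the 9 members the samples of the 2 groups did not overlap, against 43.9% of all genes tested. Jag1, Notch1, Notch2, Notch3 and Lfng were known to differ in these samples from the study itself, so their count is not independent evidence.

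**Figure D1:**
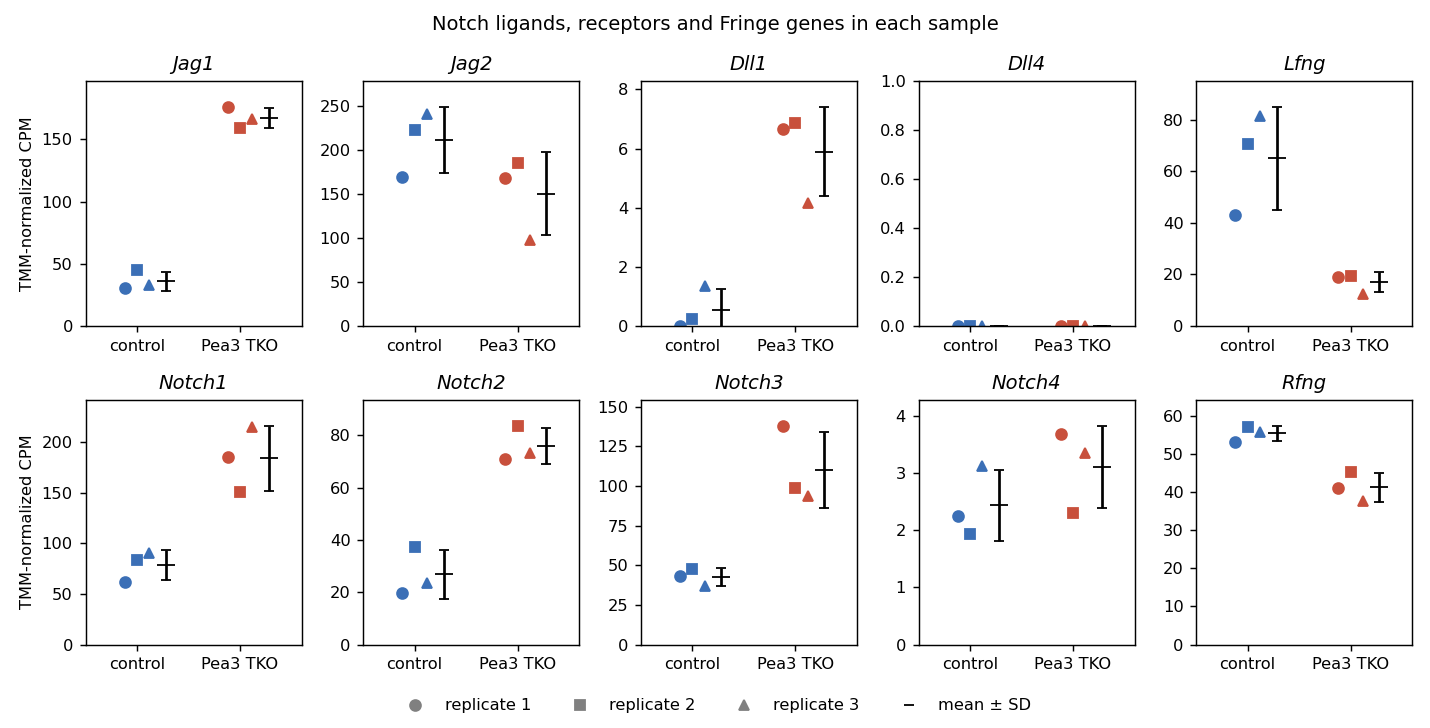
Normalized level of each member in each sample (TMM-normalized CPM, linear axes that start at 0), with 1 panel per gene, a marker shape per replicate and bars for the mean ± SD of n = 3. Jag1 lies between 30.7 and 44.9 CPM in controls and between 159 and 176 CPM in mutants, Lfng moves the opposite way, and Dll4 has no counts.

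Among the ligands, Jag1 was raised and Jag2 was not. Jag1 encodes a Jagged ligand that is widely used by epithelial cells. Its level was 30.7, 44.9 and 32.8 CPM in control replicates 1 to 3 and 176, 159 and 167 CPM in Pea3 TKO replicates 1 to 3. Every mutant sample lay more than 3 times above every control sample, and the spread among mutants was small. The mean went from 36.1 ± 7.63 to 167 ± 8.30 CPM (SD, n = 3 each), 4.63-fold, and the log2 difference was 2.21 ± 0.16 (SE; edgeR quasi-likelihood test, adjusted p = 3.77e-05). The log2 difference stayed between 2.10 and 2.39 over all 14 alternative settings and passed the test in each, including the fit without Pea3 TKO replicates 1 and 2. The gene lies on GRCm38 at chr2:137081456-137116644, minus strand.

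Jag2, the second Jagged ligand (chr12:112907819-112929776, minus strand), was measured at 169.8, 224 and 242 CPM in controls and at 169.1, 186 and 97.6 CPM in Pea3 TKO. The groups overlapped, since control replicate 1 was level with Pea3 TKO replicate 1 and only Pea3 TKO replicate 3 was well below the controls. The log2 difference of -0.49 ± 0.23 (SE) did not pass the test (edgeR, adjusted p = 0.144). It was -1.14 (adjusted p = 0.0195) with summed Y-linked expression as a covariate and -1.11 (adjusted p = 0.0548) without Pea3 TKO replicates 1 and 2, both of which set Pea3 TKO replicate 3, the low sample, against the controls. Without that sample it was -0.26 (adjusted p = 0.306).

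Dll1, a Delta ligand (chr17:15367354-15376872, minus strand), was near the floor in controls and low in mutants. It had 0, 4 and 21 counts in control replicates 1 to 3 and 105, 98 and 71 counts in Pea3 TKO replicates 1 to 3. The groups did not overlap, although the controls ranged from no count to 1.37 CPM. The mean was 0.538 ± 0.727 CPM in controls and 5.90 ± 1.50 CPM in Pea3 TKO (SD, n = 3 each), with a log2 difference of 3.46 ± 1.01 (SE; edgeR, adjusted p = 0.0327). This call was lost without control replicate 2 (adjusted p = 0.106), without Pea3 TKO replicate 1 (0.0888), without Pea3 TKO replicate 2 (0.0988), without both of these mutants (0.369) and with the Y-linked covariate (0.231), and the log2 difference was 5.52 without control replicate 3. Of the exonic bases of Dll1, 20.5% are shared with A930024N18Rik on the opposite strand, and no strand setting of the counting is stated, so reads of the pair cannot be told apart there.

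Dll4, the Delta ligand best known from blood vessels (chr2:119325784-119335962, plus strand), had 0 counts in all 6 samples. At these depths this allows a level of up to 0.210 CPM in the shallowest library, counting error only. Of 12 endothelial markers, 8 stayed at or below 1 CPM in all samples, Tie1 and Emcn had no counts, and the summed level of 19.6 to 35.2 CPM was mostly Egfl7.

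Scaled to transcript length, the ligand pool of the controls was Jag2 with some Jag1, and that of the mutants was Jag1 and Jag2 in similar amounts. Jag1 made up 14.1%, 15.4% and 10.9% of ligand transcripts in controls and 47.3%, 42.6% and 59.4% in Pea3 TKO. The groups did not overlap, and the mean share went from 13.5 ± 2.31% to 49.7 ± 8.70% (SD, n = 3 each). The ratio of Jag1 to Jag2 was 0.165, 0.183 and 0.124 in controls and 0.946, 0.780 and 1.55 in mutants. Jagged ligands together remained the bulk of the pool, at 99.3% to 100% in controls and 97.1% to 97.7% in mutants. The remainder was Dll1, whose share was 0.282 ± 0.378% in controls and 2.67 ± 0.294% in Pea3 TKO. The control share of Dll1 was 0.0671% without control replicate 3 and 0.423% without control replicate 1. The summed ligand level overlapped between groups, at 38.7, 51.9 and 53.6 CPM per kb in controls and 66.3, 66.7 and 50.0 CPM per kb in Pea3 TKO. These shares and ratios are descriptions of values already tested gene by gene and carry no test of their own.

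**Figure D2:**
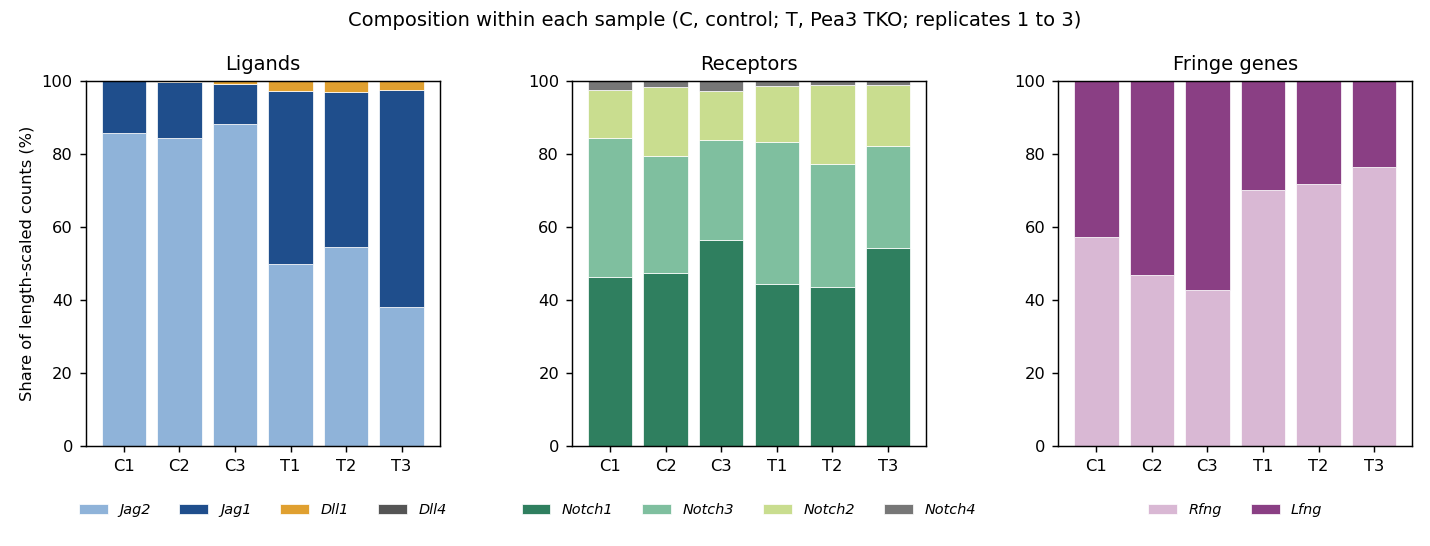
Stacked bars of the share of each gene, in percent of length-scaled transcripts, for ligands, receptors and Fringe genes in each of the 6 samples. The Jag1 part of the ligand bar is 10.9% to 15.4% in controls and 42.6% to 59.4% in Pea3 TKO, the receptor bars keep similar parts, and the Lfng part of the Fringe bar is 42.6% to 57.3% in controls and 23.4% to 29.8% in Pea3 TKO.

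Among the receptors, Notch1, Notch2 and Notch3 were each higher in Pea3 TKO by 2.34-fold to 2.83-fold, and Notch4 was not called. Notch1 is the receptor most often studied in epithelial fate choice (chr2:26457903-26516663, minus strand). Its level was 62.2, 83.6 and 89.9 CPM in controls and 186, 151 and 215 CPM in mutants, without overlap. The mean went from 78.6 ± 14.54 to 184 ± 32.1 CPM (SD, n = 3 each), a log2 difference of 1.23 ± 0.17 (SE; edgeR, adjusted p = 0.00124).

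Notch2, a receptor whose loss affects organs such as the kidney and liver (chr3:98013527-98150361, plus strand), was at 19.6, 37.3 and 23.7 CPM in controls and at 71.1, 83.7 and 73.2 CPM in Pea3 TKO. The lowest mutant sample lay well above control replicate 2, the highest control. The mean went from 26.8 ± 9.27 to 76.0 ± 6.75 CPM (SD, n = 3 each), and the log2 difference was 1.50 ± 0.23 (SE; edgeR, adjusted p = 0.00167). It was of like size without Pea3 TKO replicates 1 and 2 (1.46), where it no longer passed the test (adjusted p = 0.0682).

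Notch3 is a receptor known above all from pericytes and smooth muscle (chr17:32120820-32166852, minus strand). It was measured at 43.0, 47.8 and 36.6 CPM in controls and at 138, 98.5 and 93.9 CPM in mutants, with Pea3 TKO replicate 1 the highest and no overlap. The mean went from 42.5 ± 5.61 to 110.1 ± 24.2 CPM (SD, n = 3 each), a log2 difference of 1.37 ± 0.18 (SE; edgeR, adjusted p = 8.20e-04). Markers of pericytes and smooth muscle moved the same way, with a summed level over 8 genes of 17.3 to 22.2 CPM in controls and 76.1 to 98.2 CPM in Pea3 TKO. Of the 6 that could be tested, Rgs5, Acta2 and Tagln were higher (mean 0.18 to 6.48, 5.51 to 43.7 and 3.48 to 21.7 CPM), while Kcnj8 (0 to 2.10 CPM in all samples), Pdgfrb (1.65 to 4.96 CPM) and Cspg4 (5.61 to 10.4 CPM) did not pass the test. Of the other two, Myh11 had no counts in controls and 2, 35 and 26 counts in Pea3 TKO, and Abcc9 stayed at or below 1.18 CPM. The part of these markers in the Notch3 value was not tested.

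Notch4, a receptor of endothelial cells (chr17:34564268-34588503, plus strand), was low, at 2.25, 1.93 and 3.12 CPM in controls and 3.68, 2.31 and 3.35 CPM in Pea3 TKO. The groups overlapped and the log2 difference of 0.35 ± 0.52 (SE) did not pass the test (edgeR, adjusted p = 0.662). The SE was larger than the difference, and only 31 to 58 reads were counted per sample.

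The receptor pool was larger in Pea3 TKO, while the shares of its main members overlapped between the groups. Summed over the 4 receptors, the level was 14.1, 18.6 and 16.8 CPM per kb in controls and 44.1, 36.5 and 41.9 CPM per kb in mutants, 2.47-fold in the mean (16.5 ± 2.26 against 40.8 ± 3.90, SD, n = 3 each). Notch1 accounted for 50.1 ± 5.58% of receptor transcripts in controls and 47.4 ± 5.90% in Pea3 TKO, Notch2 for 15.2 ± 3.32% and 17.9 ± 3.43%, and Notch3 for 32.4 ± 5.37% and 33.5 ± 5.52%. For each of these the samples of the groups overlapped. The Notch4 share was 2.27 ± 0.638% in controls and 1.15 ± 0.165% in mutants, without overlap. Small parts of the exons of Notch1 (9.76%) and Notch3 (6.03%) are shared with genes on the other strand, and 5.02% of Notch2 is shared with Gm42820 on the same strand.

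Of the Fringe genes, Lfng fell in Pea3 TKO and Rfng did not pass the test. Lfng (chr5:140607320-140615545, plus strand) had 43.0, 70.4 and 81.5 CPM in controls and 19.0, 19.3 and 12.5 CPM in Pea3 TKO. Even control replicate 1, the lowest control, lay above every mutant sample. The mean fell from 64.9 ± 19.8 to 16.9 ± 3.83 CPM (SD, n = 3 each), 3.84-fold, with a log2 difference of -1.94 ± 0.26 (SE; edgeR, adjusted p = 9.73e-04). It passed the test under all 14 alternatives, with log2 differences from -2.40 to -1.75.

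Rfng (chr11:120780746-120784207, minus strand) varied little among controls, at 53.2, 57.2 and 55.7 CPM, and was measured at 41.0, 45.2 and 37.5 CPM in Pea3 TKO. The groups did not overlap, but the log2 difference was small, -0.42 ± 0.14 (SE), and lay at the threshold (edgeR, adjusted p = 0.0503). It was called by DESeq2 (adjusted p = 0.038) and with a stricter low-count filter (adjusted p = 0.0469). Mfng, the third Fringe gene, was at 0.39 CPM or less in every sample and was not tested.

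Fringe transcripts were about equal parts of Lfng and Rfng in controls and mostly Rfng in Pea3 TKO. The Lfng share of both was 42.6%, 53.1% and 57.3% in controls and 29.8%, 28.2% and 23.4% in mutants. Against the receptors on which these enzymes act, summed length-scaled Fringe transcripts were 3.29 ± 0.335 per receptor transcript in controls and 0.664 ± 0.135 in Pea3 TKO (SD, n = 3 each). The ratio of Jag1 to Lfng per length was 0.294, 0.262 and 0.166 in controls and 3.81, 3.39 and 5.47 in mutants. The control samples sat below 1 in this ratio and the mutant samples above 3. Ligand transcripts per receptor transcript were 2.74, 2.79 and 3.19 in controls and 1.50, 1.83 and 1.19 in mutants, which also did not overlap. The size of ratios between gene classes depends on the lengths used, 2305 bases for Lfng and 2118 for Rfng against 6591 to 10500 for the receptors. These ratios were not computed with other length scalings, and even read coverage over the transcripts was not tested.

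**Figure D3:**
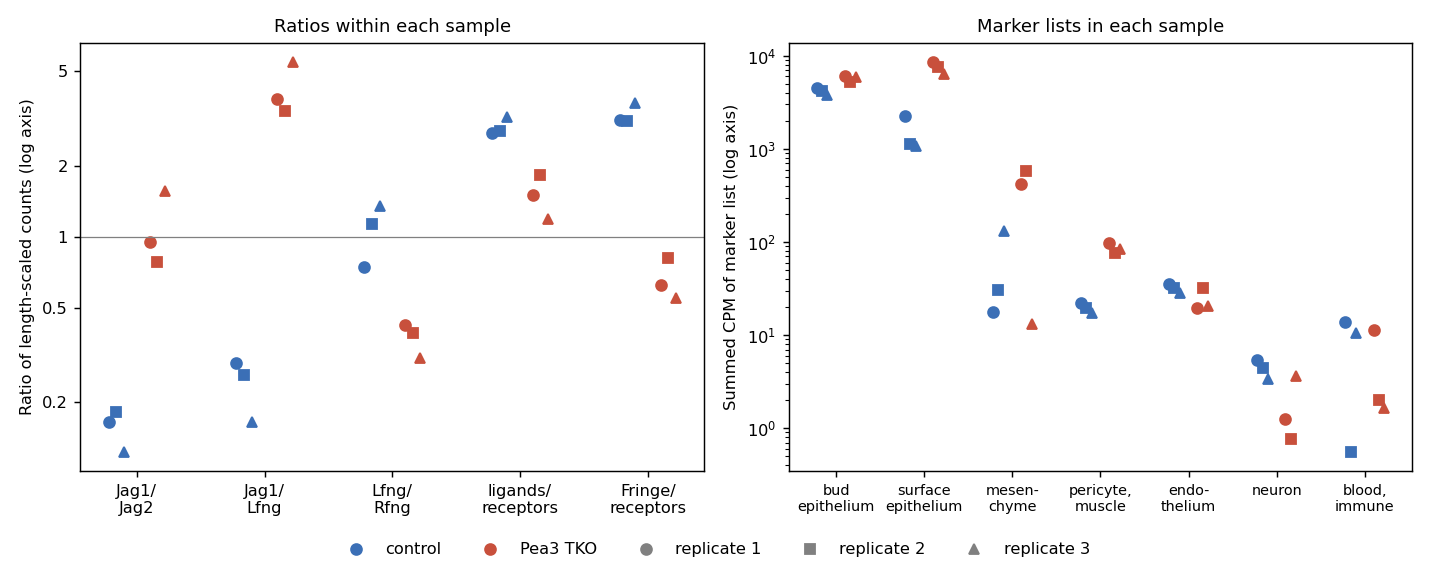
Ratios between members per transcript length (log axis) and summed levels of cell type markers (CPM, log axis) in each sample, controls and Pea3 TKO side by side. The Jag1 to Lfng ratio is 0.166 to 0.294 in controls and 3.39 to 5.47 in mutants, and the mesenchymal sum is high only in Pea3 TKO replicates 1 and 2 (419 and 582 CPM).

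Ranked by level per transcript length, the controls were led by Jag2 (41.5 ± 7.32 CPM per kb), Lfng (28.2 ± 8.60) and Rfng (26.1 ± 0.952), each overlapping the next, while Jag2 and Rfng did not overlap. Notch1 (8.28 ± 1.53), Jag1 (6.44 ± 1.36) and Notch3 (5.30 ± 0.700) followed, each overlapping its neighbor, then Notch2 (2.56 ± 0.882), Notch4 (0.370 ± 0.0933), Dll1 (0.150 ± 0.203) and Dll4 at 0 (SD, n = 3). The gaps between Rfng and Notch1, Notch3 and Notch2, and Notch2 and Notch4 were clear of overlap. In Pea3 TKO, Jag1 (29.8 ± 1.48 CPM per kb) and Jag2 (29.5 ± 9.19) led without differing beyond their spread, followed by Rfng (19.5 ± 1.82), Notch1 (19.4 ± 3.39) and Notch3 (13.7 ± 3.02), each overlapping the gene before it. A gap separated these from Lfng (7.35 ± 1.66) and Notch2 (7.24 ± 0.642), and further gaps set off Dll1 (1.65 ± 0.418), Notch4 (0.472 ± 0.109) and Dll4. On this scale Lfng moved from among the 3 highest members to level with Notch2, and Jag1 from the middle to the top. The order depends on the length scaling. In mean CPM without it, Notch1 (184) was above Jag1 (167) in Pea3 TKO, and Lfng (16.9) was well below Notch2 (76.0). In controls Notch1 (78.6) was then above Lfng (64.9).

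The other Notch pathway genes did not move as a block. Of 54 listed genes that act with the members, 50 could be tested, 6 were higher (12%) and 5 lower (10%), with a median log2 difference of 0.16 against 0.01 over all genes tested. For comparison, 13.6% of all genes were higher and 11.3% lower, so the list stood near the background. The count of 11 was 7 without control replicate 2 (6 of the same genes) and 5 without Pea3 TKO replicate 2 (all among the 11). Without Pea3 TKO replicates 1 and 2 none of the 11 passed, and the 1 gene called was Hey1. With the Y-linked covariate 3 of the 11 passed.

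**Figure D4:**
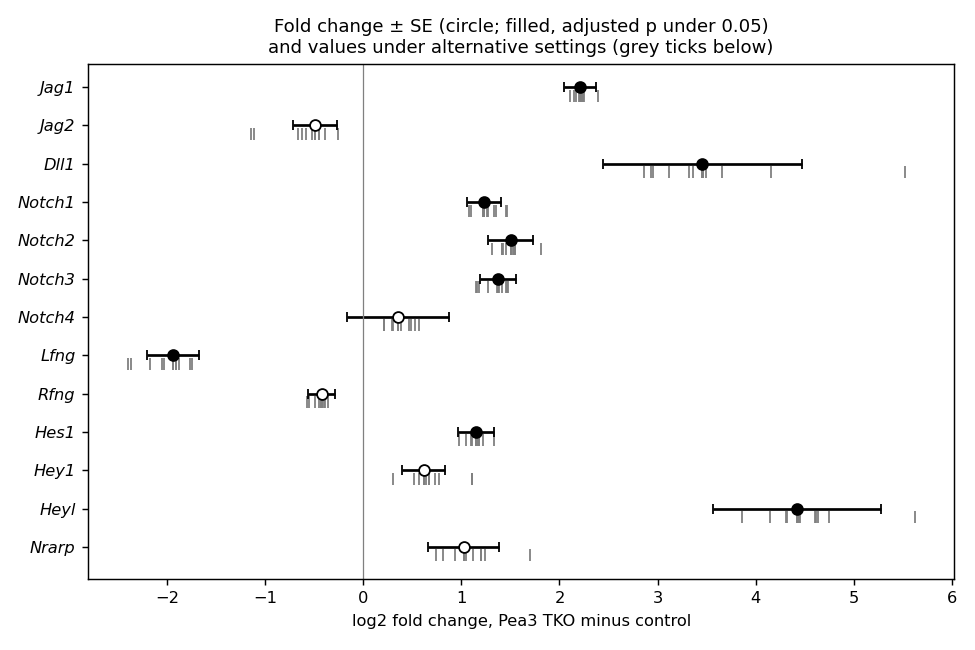
Log2 difference of Pea3 TKO minus control for the 9 tested members and 4 tested target genes (circles, filled where the adjusted p passed 0.05; bars, SE; grey ticks, alternative settings). Jag1 (2.21), Notch1 (1.23), Notch2 (1.50) and Notch3 (1.37) lie to the right and Lfng (-1.94) to the left of 0, and no tick crosses 0.

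Among other ligands, Dner, a noncanonical ligand best known from neurons, was at 2.14, 2.93 and 5.79 CPM in controls and had no counts in any mutant sample, at least 18.8-fold lower when 3 counts per library are taken as the floor (edgeR, adjusted p = 0.0026). Dll3, a divergent Delta protein, stayed at or below 0.34 CPM. Of 7 genes for receptor glycosylation and maturation, Gmds fell from 53.7 ± 9.69 to 32.2 ± 2.31 CPM (SD, n = 3 each; edgeR, adjusted p = 0.0123). Gmds encodes an enzyme in the synthesis of the GDP-fucose used to fucosylate proteins. Pofut1, which attaches the O-fucose that Fringe extends, had a log2 difference of 0.01 (edgeR, adjusted p = 0.99). The median log2 difference of this list was 0.01. Without Pea3 TKO replicates 1 and 2 neither Dner (adjusted p = 0.0509) nor Gmds (0.239) passed, and Gmds also did not pass without control replicate 3 (0.0588).

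Of 5 genes for ligand ubiquitylation 1 rose (20%), and of 9 genes for receptor turnover 2 rose (22.2%), with none lower in either list. Over all genes tested 13.6% were higher and 11.3% lower, and lists this short cannot be told apart from that share. Their median log2 differences were 0.01 and 0.20. Mib2, which ubiquitylates Notch ligands, went from 25.6 to 44.5 CPM (log2 difference 0.79, edgeR adjusted p = 0.023). Dtx3l went from 10.1 to 39.7 CPM (1.98, adjusted p = 0.00115) and Dtx2 from 26.6 to 38.6 CPM (0.54, adjusted p = 0.0435), both of the Deltex family. The Dtx3l call was lost in 1 alternative, without Pea3 TKO replicates 1 and 2 (adjusted p = 0.0512), where Mib2 and Dtx2 did not pass either (0.422 and 0.301). Mib2 also did not pass without control replicate 1 (0.0525), control replicate 2 (0.0798), Pea3 TKO replicate 1 (0.0832) or Pea3 TKO replicate 2 (0.0716), and Dtx2 did not pass when any 1 sample other than control replicate 1 was left out (0.0764 to 0.153).

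Of 9 receptor protease genes, Adam10, which makes the first ligand-induced cut, fell from 358 ± 75.0 to 238 ± 31.7 CPM (SD, n = 3 each; edgeR, adjusted p = 0.0311). In the nuclear complex, Rbpj fell from 45.2 ± 7.33 to 29.2 ± 1.38 CPM (adjusted p = 0.0235) and the corepressor Tle3 from 32.2 ± 17.4 to 9.72 ± 3.16 CPM (adjusted p = 0.0166), while the other 11 genes of this list did not pass. None of these 3 passed without Pea3 TKO replicates 1 and 2 (adjusted p = 0.342 for Adam10, 0.277 for Rbpj and 0.238 for Tle3). Adam10 also did not pass without control replicate 2 (0.113), control replicate 3 (0.117), Pea3 TKO replicate 1 (0.0978) or Pea3 TKO replicate 2 (0.0765). Rbpj did not pass without control replicate 2 (0.103), Pea3 TKO replicate 1 (0.0592) or Pea3 TKO replicate 2 (0.0749), and Tle3 without Pea3 TKO replicate 2 (0.0635).

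Of 6 canonical Notch target genes, 4 could be tested, 2 rose and none was called lower. Over all genes tested 13.6% were higher and 11.3% lower, so the lack of a lower call among 4 genes says little. The median log2 difference of the 4 was 1.09, against 0.01 over all genes tested. Hes1, a repressor of the Hes family, was at 111, 89.0 and 67.0 CPM in controls and 224, 179.6 and 189 CPM in Pea3 TKO, without overlap (log2 difference 1.15 ± 0.18, SE; edgeR, adjusted p = 0.00196). Heyl, known from smooth muscle and other tissues, was at 1.24, 0.499 and 0 CPM in controls and at 6.22, 17.7 and 14.6 CPM in mutants (4.42 ± 0.85, SE; adjusted p = 0.00563). Both were of like size without Pea3 TKO replicates 1 and 2, at 1.10 and 4.63, and no longer passed (adjusted p = 0.0625 and 0.0803).

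Hey1 and the feedback inhibitor Nrarp lay at the edge of the test. Hey1 was at 71.5, 72.1 and 57.3 CPM in controls and 78.9, 86.1 and 143 CPM in mutants, without overlap and with Pea3 TKO replicate 3 far above the other 5 samples (log2 difference 0.62, edgeR adjusted p = 0.0667). Without that sample the log2 difference was 0.30 (adjusted p = 0.213), and without Pea3 TKO replicate 1 it was 0.78 (adjusted p = 0.0453). Nrarp was at 77.9, 30.7 and 25.0 CPM in controls and 90.7, 79.8 and 101 CPM in mutants (1.02, adjusted p = 0.0636). Control replicate 1 stood close to the mutants for Nrarp, and without it the log2 difference was 1.70 (adjusted p = 1.36e-04). Hes5 had 0, 1 and 1 counts in controls and 8, 24 and 64 in Pea3 TKO, and Hey2 stayed below 1 CPM in every sample. Neither passed the filter on low counts, so no test was made.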

How the data were processed

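The deposited tables give the authors' raw read counts for each gene symbol, in a separate table for every sample and not normalized. RNA was amplified with the NuGEN Ovation system before library preparation, which can distort levels of rare transcripts. Per the labels (the submitters' processing notes), bcl2fastq 2.17, STAR 2.5.2b, featureCounts 1.5.0-p3, DESeq and mm10 were used. Their settings, the annotation and the strand setting are not given in the sources used here.

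Genes were kept with filterByExpr (13087 of 23420), normalized by TMM and compared by the edgeR 4.0.16 quasi-likelihood test (R 4.3.3) with group alone in the model, and p-values were adjusted by Benjamini-Hochberg over all genes tested, at a threshold of 0.05. SE was taken as the size of the log2 fold change over the root of its F statistic. Scripts were tested on simulated counts. The common coefficient of variation between replicates was 0.26, and no replicates were duplicates (chi-square per degree of freedom at least 16.0). CPM per kb used the longest coding transcript of GENCODE M21 (GRCm38, the build of mm10). Alternatives were DESeq2 1.42.0, RLE or library-size scaling, no or a stricter filter (1 CPM), the replicate block, a Y-linked covariate, leaving out samples and other length scalings. The other length scalings were applied to the shares only. Floors are 3 counts per library and cover counting error only. An exact permutation test of 3 against 3 samples cannot give a p below 0.1.

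The members, pathway lists and marker lists were chosen with earlier results of these data known. Genes named are the members, Dll3, Mfng, 6 targets (Hes1, Hes5, Hey1, Hey2, Heyl and Nrarp), up to 4 genes with the smallest p past the threshold in each other pathway list, Etv1, Etv4 and Etv5, and the 3 genes whose centred log2 CPM lay nearest to that of Jag1 and of Lfng. Pofut1, A930024N18Rik, Gm42820 and the markers named were chosen after their values were seen. Some results under this rule are not reported here.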

Additional observations from a re-analysis of the deposited data

How the results depend on the processing

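No member changed direction under any alternative. Jag1, Notch1, Notch3 and Lfng passed the test in all 14. The fit without Pea3 TKO replicates 1 and 2 was chosen after seeing the data. It called 597 genes (315 higher, 282 lower) instead of 3268, members 3 higher, and 1 pathway gene (1 higher, 0 lower), which was Hey1 and not among the 11 called with all samples. With the Y-linked covariate, which separates the same 2 libraries from the rest, 787 genes (497 higher, 290 lower), 2 members lower (Jag2 and Lfng) and 4 pathway genes (0 lower) were called. With DESeq2 or the stricter filter, 2 members were lower (Lfng and Rfng). Leaving out 1 sample at a time gave 1948 to 3344 genes (1131 to 1948 higher, 799 to 1417 lower), with 1948 without control replicate 3, 1963 without control replicate 2 and 2072 without Pea3 TKO replicate 2. It gave 4 to 5 members higher, 1 lower, and 5 to 13 pathway genes (3 to 8 higher, 2 to 5 lower). Why the counts moved was not tested, and the fits that leave out samples also hold fewer of them. In Pea3 TKO the Jagged share was 98.2% on raw counts and 97.0% on coding length, the Dll1 share 1.80% and 3.03%, and the Notch4 share 0.827% on raw counts. With the replicate block, 3191 genes were called, with 5 members higher and 1 lower, and Nrarp passed (log2 difference 1.20, edgeR adjusted p = 0.0214). No clear pairing by number was seen (r across genes 0.123, -0.039 and -0.013 for numbers 1, 2 and 3). The mean r was 0.024 for the same number and -0.012 for different numbers. With 3 samples a group these values cannot settle whether the samples were paired. Nrarp also passed without the low-count filter (1.03, adjusted p = 0.0363). Hey1 passed with DESeq2 (0.62, 0.0281), the Y-linked covariate (1.11, 0.0135) and without Pea3 TKO replicates 1 and 2 (1.11, 0.0274), but was 0.30 (0.213) without Pea3 TKO replicate 3. Dtx2 did not pass with the replicate block (adjusted p = 0.0555) or without the low-count filter (0.052). Low counts limit Dll1, Notch4, Heyl and Hes5.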

Other observations

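The genes whose profile over the 6 samples was nearest to that of Jag1 were Inhbb, a subunit of activins, Snai1, a transcription factor of epithelial-mesenchymal transition, and Areg, a ligand of the EGF receptor. Likeness was the root mean square difference between log2 CPM profiles, each centred on its own mean, and it was 0.117, 0.189 and 0.201 for these 3 genes. Inhbb went from a mean of 3.26 CPM in controls to 15.5 CPM in Pea3 TKO (edgeR, adjusted p = 6.81e-04) and Areg from 0.714 to 3.70 CPM (adjusted p = 0.0193), while Snai1, at 0.307 and 1.52 CPM, did not pass the test (adjusted p = 0.054).

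Nearest to Lfng were Ctgf, a matricellular protein, Tgm2, a transglutaminase, and Pdzrn3, a ubiquitin ligase, at 0.173, 0.178 and 0.197. Ctgf fell from 35.8 to 9.70 CPM (edgeR, adjusted p = 0.00163), Tgm2 from 8.13 to 2.43 CPM (adjusted p = 0.0207) and Pdzrn3 from 44.5 to 13.5 CPM (adjusted p = 7.65e-04). These genes were picked for their likeness in these same samples, so their changes are descriptions.

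Of the lists of other cell types, neuronal markers summed to 0.769 to 5.41 CPM and blood and immune markers to 0.561 to 13.9 CPM over the 6 samples, and none of the 2 tested genes in each list passed the test.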
